A study of Mus musculus with 154 samples.

Results

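The liver transcriptome of male mice that inherited one copy of chromosome 6 from strain A/J was compared with that of the host strain. The 8 mice labelled (B6 X B6.A6)F1, sire first, are written here with the dam first as (B6.A6 x B6)F1. They were taken against the 20 mice labelled B6. Together these were 28 mice beside 126 others in the series, and every gene in the count table was tested. Of 13289 genes, 712 lie on chromosome 6 and 12577 elsewhere. A/J and C57BL/6J (B6) are inbred mouse strains, and a chromosome substitution strain (CSS) is B6 except for 1 pair of chromosomes that comes from A/J. (B6.A6 x B6)F1 mice are offspring of a B6.A6 dam and a B6 sire. By design they are heterozygous for A/J along chromosome 6 and B6 on all other chromosomes. Genotypes were not examined here. The B6 mice carry no A/J chromosome and had B6 dams. All mice were males of 5 weeks, fasted overnight, and RNA came from the caudate lobe of the liver. Because every carrier had a B6.A6 dam, the offspring's chromosome and the dam's genotype cannot be told apart. The flow cell and the cage of each mouse were not given in the sources used here.

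A chromosome substitution divides regulation into 2 parts. A variant on the exchanged chromosome can alter the gene beside it, in promoters, enhancers, splice sites or the transcript itself. By design, genes on the other chromosomes have the same sequence in both groups, which was not checked here. Under that design they differ where a product of the exchanged chromosome, the dam or the environment acts on them. Mouse chromosome 6 carries the murinoglobulin and alpha-2-macroglobulin family of secreted protease inhibitors, the natural killer gene complex of lectin-like receptors, the paraoxonases, and several enzymes of glucose and amino acid metabolism. In the liver, such genes serve secretion, lipid handling, detoxification and the supply of glucose in fasting.

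The libraries held 14438123 to 24134282 counted reads in (B6.A6 x B6)F1 and 6752637 to 25630807 in B6. Levels are CPM, counts relative to library size, scaled by the trimmed mean of M values (TMM), and differences as log2 fold change with its standard error from a model of all mice of the series with 5 surrogate variables. Adjustment of p-values (Benjamini-Hochberg) was done within genes on chromosome 6 and within all other genes separately, and a gene was called at an adjusted p under 0.05. Hepatocyte markers (albumin, apolipoproteins, transthyretin and others) summed to 118828 to 144160 CPM in (B6.A6 x B6)F1 and 117473 to 176477 in B6. Kupffer cell markers summed to 476 to 761.4 CPM and 440.3 to 719.4 CPM. Of the 11 hepatocyte and 12 Kupffer cell markers measured, 1 each was called, Ttr and Clec4f. The skeletal muscle list held 1 measured marker, Myh4, at 0 to 0.86 CPM in (B6.A6 x B6)F1, and the exocrine pancreas list 1, Cela1, at 3.74 to 9.62 CPM. No 2 libraries agreed within sampling noise. In bulk liver, fewer cells of a type and less RNA per cell cannot be told apart.

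The same substitution was also measured in mice that this comparison does not use. The 20 double CSS mice (B6.A6 x B6.A4)F1, (B6.A6 x B6.A5)F1, (B6.A6 x B6.A8)F1 and (B6.A6 x B6.A10)F1 carry the A/J chromosome 6 together with 1 other A/J chromosome. They were set against the 31 single CSS mice that carry only the other chromosome. The mean of these 4 differences is called the effect in the crosses. Their mothers were again B6.A6 against B6, so the dam varies with the chromosome there too.

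On chromosome 6, 99 of 712 genes (13.9%) were called, 50 higher (7.02%) and 49 lower (6.88%) in (B6.A6 x B6)F1. Elsewhere 976 of 12577 genes (7.76%) were called, 522 higher (4.15%) and 454 lower (3.61%). The called differences were small in both parts. Their median size was 0.29 on the log2 scale on chromosome 6 and 0.28 elsewhere, and only 8 genes on chromosome 6 and 31 elsewhere differed by more than 1. The 8 on chromosome 6 were 1 rise and 7 falls. The crosses gave a second measurement of each called gene. Of the 99 genes, 40 (40.4%, and 5.62% of all chromosome 6 genes) were also called in the crosses in the same direction, and 1, Gm44250, in the opposite one. Among the 613 chromosome 6 genes not called against B6, 49 (7.99%) were called in the crosses with the same sign. Of the 976 genes elsewhere, 23 (2.36%, and 0.183% of all genes elsewhere) were called in the crosses in the same direction and 7 in the opposite one, against 99 of 11601 (0.853%) with the same sign among the genes not called. In the crosses as a whole, 61 chromosome 6 genes were called higher (8.57%) and 55 lower (7.72%), together 16.3%, and 223 genes elsewhere (1.77%) were called, 155 higher (1.23%) and 68 lower (0.541%). The count elsewhere depended on single mice and on the model, more than the count on chromosome 6 did: without B6 replicate 4 it was 453, and without (B6.A6 x B6)F1 replicates 1, 2 or 3 it was 585, 606 or 542, with 78, 80, 72 and 83 genes called on chromosome 6, of which 74, 78, 71 and 79 were among the 99. With 10 surrogate variables 332 genes elsewhere and 68 on chromosome 6 were called.

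**Figure D1:**
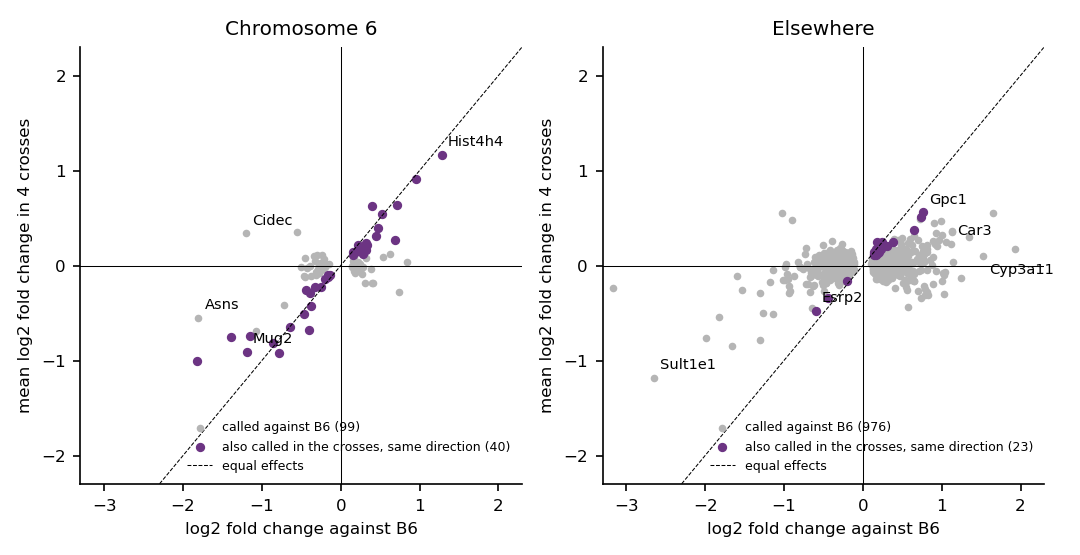
Log2 fold change of (B6.A6 x B6)F1 against B6 (horizontal) and mean log2 fold change of the chromosome 6 substitution in the 4 crosses (vertical), for genes on chromosome 6 and for genes elsewhere. Each point is a gene called against B6, the dashed line marks equal effects, and dark points were also called in the crosses in the same direction, 40 on chromosome 6 and 23 elsewhere. On chromosome 6 the dark points of Mug2, Dysf and Hist4h4 lie near the line, and those of Gm765 (-1.82 against -1.01) and Slc41a3 (-1.39 against -0.76) off it.

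The crosses did not behave alike. (B6.A6 x B6.A8)F1 against (B6 x B6.A8)F1 gave 2736 calls elsewhere (21.8%), while the crosses with chromosomes 4, 5 and 10 gave 37 (0.294%), 1 (0.00795%) and 3 (0.0239%). On chromosome 6 the 4 crosses called 25.4%, 6.46%, 2.25% and 5.34% of genes in the order 8, 4, 5, 10. Of the 976 genes called elsewhere against B6, 244 had the same sign in the chromosome 8 cross, against 581, 786 and 632 in the crosses with chromosomes 4, 5 and 10. For the 99 genes on chromosome 6 these numbers were 47, 75, 85 and 77, and 33 genes kept the sign in all 4. With the chromosome 8 cross left out, a choice made after the values were seen, 85 of the 99 genes on chromosome 6 and 762 of the 976 elsewhere had the same sign (85.9% and 78.1%), against 58.1% and 56.9% of the genes not called. Of the 40 and 23 genes called in both settings, 33 and 8 were still called with 3 crosses, which called 36 and 12 in all. The test of the difference between the 2 effects rested on the chromosome 8 cross. With all 4 crosses it called 39 chromosome 6 genes (5.48%) and 628 elsewhere (4.99%), among them 24 of the 99 and 371 of the 976. With 3 crosses it called 2 and 13, among them 0 of the 99 and 11 of the 976, where 104 and 1659 genes had an unadjusted p under 0.05. The 99 and 976 genes were chosen for their effect against B6, which is part of this difference, so that choice raises the number of differences called among them. Among genes not called against B6, the test with all 4 crosses called 15 of 613 on chromosome 6 and 257 of 11601 elsewhere. Differences for single genes use all 4 crosses unless 3 are named.

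The calls lay along the whole of chromosome 6. In successive windows of 25 Mb from the centromere, 14 of 67, 12 of 128, 14 of 90, 19 of 145, 12 of 139 and 28 of 143 genes were called. The last window held 15 of the 40 genes that were called in the crosses as well. It includes the natural killer gene complex, the histone gene Hist4h4 and the kinase gene Pik3c2g. Of 595 protein-coding genes on the chromosome 89 were called, and of 62 transcripts of the biotype TEC, which awaits experimental support, 4. Of genes with an average under 2 log2 CPM, 18 of 220 were called, and of those at 5 or more, 42 of 197.

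**Figure D2:**
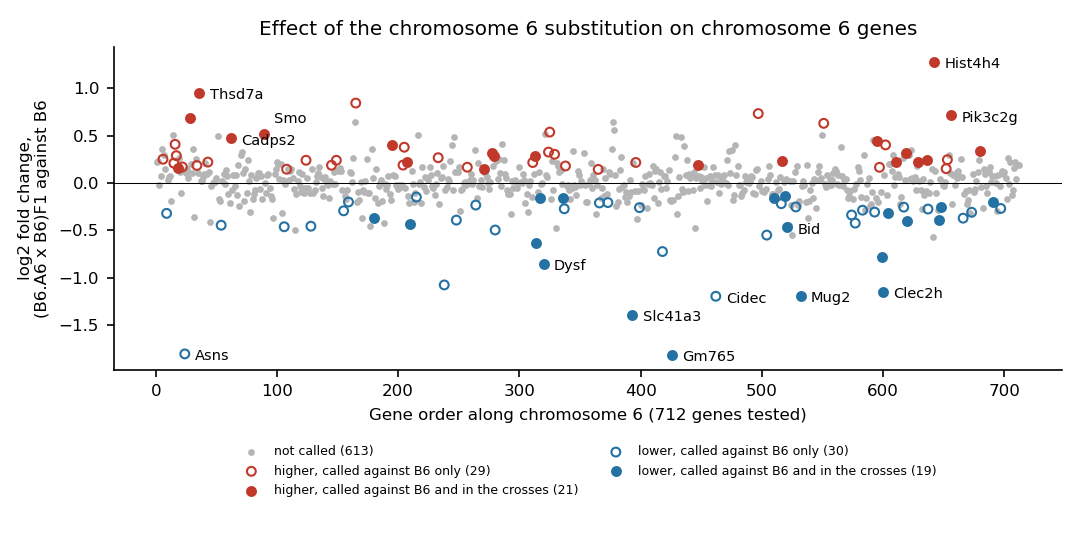
Log2 fold change of (B6.A6 x B6)F1 against B6 for the 712 genes on chromosome 6, in their order along the chromosome. Grey points were not called, open circles were called against B6, and filled circles were called in the crosses in the same direction too, red where higher and blue where lower. Calls of both signs occur along the whole order.

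Mug2 (murinoglobulin 2, chr6:122006761-122085965, plus strand, mm10), a secreted protease inhibitor of the alpha-2-macroglobulin family, had the smallest p on the chromosome. Its level was 128 to 187.8 CPM (median 162.99) in the 8 (B6.A6 x B6)F1 mice and 239 to 707.6 CPM (median 367) in the 20 B6 mice. The groups did not overlap. The log2 fold change was -1.19 ± 0.13 (SE, adjusted p = 2.3e-13), and in the crosses it was -0.91 ± 0.09 (adjusted p = 2e-16). Its neighbour Mug1 (chr6:121838541-121889057) measured 4777 to 7569 CPM and 4811 to 9179 CPM in the 2 groups, which overlapped. Its log2 fold change was -0.23 ± 0.10 (adjusted p = 0.13), and -0.02 in the crosses. Mug-ps1, another copy in the cluster, had a log2 fold change of 0.02 (adjusted p = 0.93) against B6. In the crosses it had -0.34, and without the chromosome 8 cross -0.37 (adjusted p = 0.0023). Pzp, the pregnancy zone protein that resembles alpha-2-macroglobulin, had -0.09 (adjusted p = 0.54) against B6 and 0.15 in the crosses. The difference between the 2 effects had an adjusted p of 0.093 for Mug-ps1 and 0.18 for Pzp. The copies are alike in sequence, so reads may have been divided among them in counting. The bases just upstream of the Mug2 and Mug1 genes are shown because one gene of the pair was called and the other was not. They are RefSeq sequence of GRCm38 (mm10), plus strand, at chr6:122006548-122006760 for Mug2 and chr6:121838291-121838540 for Mug1, and capitals mark bases that differ between the pair, insertions included.
Mug2: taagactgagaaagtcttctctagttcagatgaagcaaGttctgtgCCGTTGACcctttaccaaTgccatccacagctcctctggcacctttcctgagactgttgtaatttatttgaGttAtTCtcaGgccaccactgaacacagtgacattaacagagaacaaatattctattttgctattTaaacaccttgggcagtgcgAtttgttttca
Mug1: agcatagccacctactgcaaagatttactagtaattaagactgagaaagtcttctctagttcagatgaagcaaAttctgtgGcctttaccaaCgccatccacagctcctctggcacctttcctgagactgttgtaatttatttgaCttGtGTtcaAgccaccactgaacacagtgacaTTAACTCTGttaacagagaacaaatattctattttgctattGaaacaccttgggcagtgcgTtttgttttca
Over the aligned stretch of 222 columns, 196 were identical, 10 were substitutions and 16 were gaps. This is the reference B6 sequence of each copy, and the A/J sequence of either was not analysed here.

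Mug2 also varied among the strains that lack the A/J chromosome 6. Its median was 309 CPM in (B6 x B6.A4)F1, 355 CPM in (B6 x B6.A5)F1, 495.7 CPM in (B6 x B6.A10)F1 and 199 CPM in (B6 x B6.A8)F1. With the A/J chromosome 6 added, the medians were 181.3, 203, 167 and 182 CPM in the same order. Over all strains, the 28 mice with the A/J chromosome 6 had 128 to 231 CPM and the 126 mice without it 142 to 744.04 CPM, so the groups overlapped. Mice of (B6 x B6.A8)F1, at 142 to 346 CPM, were among the lowest without it. Its fold change was smallest with chromosome 8 (-0.38) and largest with chromosome 10 (-1.58).

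**Figure D3:**
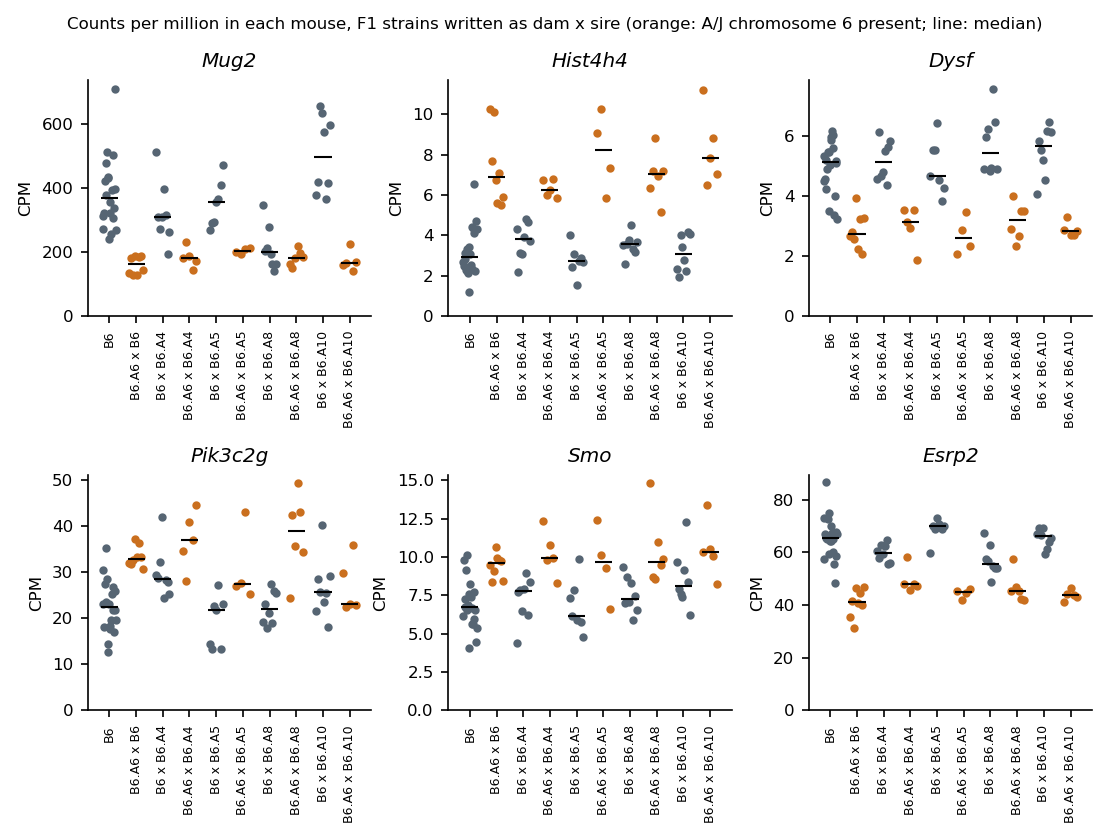
Level in CPM of 5 chromosome 6 genes and of Esrp2 on chromosome 8 in every mouse of (B6.A6 x B6)F1, B6 and the single and double CSSs of chromosomes 4, 5, 8 and 10. Each point is a mouse, orange where it carries the A/J chromosome 6, and lines are medians. The median of Hist4h4 was higher, and those of Mug2, Dysf and Esrp2 lower, in every carrier strain than in its control.

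Hist4h4 (chr6:136801553-136804415, minus strand), which encodes histone H4, had the largest rise on the chromosome. It measured 5.51 to 10.3 CPM (median 6.92) in (B6.A6 x B6)F1 and 1.2 to 6.53 CPM (median 2.95) in B6, where 1 of 20 mice lay within the range of the carriers. The log2 fold change was 1.28 ± 0.14 (adjusted p = 6.1e-13) against B6 and 1.17 ± 0.11 (adjusted p = 1e-17) in the crosses, between 0.78 and 1.60 in the 4. Over all strains, 28 mice with the A/J chromosome 6 had 5.18 to 11.2 CPM, and of 126 mice without it 1 reached that range. The gene was chosen for its difference, so these ranges are a description. Among 25 replication-dependent histone genes elsewhere, 2 were called higher (8%), Hist1h1d and Hist1h1e, against 4.15% of all genes elsewhere. In 14 omissions of a single mouse Hist1h1e lost its call in 10 (adjusted p up to 0.19) and Hist1h1d in 3 (0.061). The list had a median log2 fold change of 0.14 against B6 and -0.07 in the crosses.

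Dysf (dysferlin, a membrane repair protein, chr6:84008590-84211060) fell. Its level was 2.06 to 3.94 CPM (median 2.73) in (B6.A6 x B6)F1 and 3.23 to 6.17 CPM (median 5.13) in B6, with 3 B6 mice inside the carriers' range. The log2 fold change was -0.85 ± 0.11 (adjusted p = 7e-11) against B6 and -0.81 ± 0.08 (adjusted p = 6.3e-17) in the crosses, where the 4 values ran from -0.91 to -0.76. The 4 crosses differed little for this gene. Pik3c2g (a class II phosphoinositide 3-kinase of liver, chr6:139587221-139969284) rose. It measured 30.7 to 37.1 CPM (median 32.8) against 12.7 to 35.2 CPM (median 22.4), and 1 B6 mouse lay in the carriers' range. It had a log2 fold change of 0.71 ± 0.09 (adjusted p = 3e-11) and 0.64 ± 0.06 (adjusted p = 6.9e-16) in the crosses.

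Smo (Smoothened, the signal transducer of Hedgehog ligands, chr6:29735503-29761365) was 8.39 to 10.7 CPM (median 9.62) in carriers and 4.08 to 10.2 CPM (median 6.72) in B6, where 3 mice overlapped. It rose by 0.52 ± 0.10 on the log2 scale (adjusted p = 3.1e-05), and by 0.54 ± 0.07 in the crosses (adjusted p = 1.8e-09). Cadps2, a protein of secretory vesicles, rose by 0.47 ± 0.09 (adjusted p = 1.8e-05) and by 0.39 ± 0.06 in the crosses. Bid, a pro-apoptotic member of the Bcl2 family, was 4.23 to 6.9 CPM in carriers and 5.77 to 10.3 CPM in B6, a log2 fold change of -0.47 ± 0.09 (adjusted p = 2.2e-05) and -0.51 ± 0.06 in the crosses. Rarres2, which encodes the adipokine chemerin made largely by liver and fat, was 160.4 to 252 CPM against 221 to 396 CPM, a log2 fold change of -0.37 ± 0.07 (adjusted p = 5.1e-05) and -0.42 ± 0.05 in the crosses. For these 4 genes the test of the difference between the 2 effects was not passed (adjusted p = 0.72 to 0.96).

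Smim10l1, Plekha8, Slc41a3 and Etfrf1 completed the 8 smallest p-values. Smim10l1 (chr6:133104909-133110899) rose from a median of 77.7 to 95.1 CPM, a log2 fold change of 0.32 ± 0.05 (adjusted p = 4.9e-08). The unnamed gene Gm45769 overlaps its 3' end on the same strand and went the other way, -0.41 ± 0.08 against B6 and -0.67 ± 0.06 in the crosses. Reads from the overlap cannot be assigned to either gene with certainty. Plekha8, a glycolipid transfer protein of the Golgi, fell from a median of 41.3 to 34.1 CPM (-0.43 ± 0.07, adjusted p = 8.1e-07). Etfrf1, a regulator of electron transfer flavoprotein in mitochondria, had medians of 68 CPM in B6 and 71.7 CPM in carriers. Its log2 fold change in the model was larger than these medians give (0.34 ± 0.06, adjusted p = 4e-06). The fold changes are adjusted for the surrogate variables, and the medians are not. The call of Etfrf1 did not hold in every alternative analysis tried. Slc41a3, a member of a magnesium transporter family, was 1.55 to 4.09 CPM (median 2.75) in carriers and 2.64 to 16.5 CPM (median 9.31) in B6, with 6 B6 mice inside the carriers' range. Its log2 fold change was -1.39 ± 0.23 (adjusted p = 1.8e-06) against B6 and -0.76 ± 0.17 (adjusted p = 0.0005) in the crosses, from -1.57 with chromosome 10 to -0.04 with chromosome 8. All 4 genes were called in the crosses in the same direction.

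The remaining genes called in both settings included pairs of neighbours of opposite sign. Clec4f, a lectin receptor of Kupffer cells (chr6:83644542-83656187), rose from a median of 99.2 to 130.5 CPM, 0.28 ± 0.06 (adjusted p = 0.00017) and 0.18 in the crosses. Cd207, the adjacent langerin gene (chr6:83671215-83677857), had a log2 fold change of -0.64 ± 0.20 (adjusted p = 0.021) and -0.65 in the crosses. In the natural killer gene complex, Clec2h changed by -1.15 ± 0.34 (adjusted p = 0.012) and Clec2d by -0.32 ± 0.11 (adjusted p = 0.035), with -0.75 and -0.22 in the crosses. A2ml1, an alpha-2-macroglobulin-like gene, changed by -0.79 ± 0.20 (adjusted p = 0.0034) and -0.92 in the crosses at a median of 1.26 CPM. Lowly expressed Thsd7a rose by 0.95 ± 0.17 (adjusted p = 1.1e-05) and Gm765 changed by -1.82 ± 0.27 (adjusted p = 3.5e-08), the largest fall of all 99 genes. Gabarapl1, an autophagy factor, rose by 0.23 and Rpa3, a subunit of replication protein A, by 0.69. Of the 40 genes, 21 were higher and 19 lower.

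Several chromosome 6 genes called against B6 were not called in the crosses. Asns (asparagine synthetase, chr6:7675169-7693254), induced when amino acids are short, was 1.95 to 10.1 CPM (median 3.61) in carriers and 7.36 to 54.8 CPM (median 15.7) in B6, with 3 B6 mice in the carriers' range. It had a log2 fold change of -1.81 ± 0.33 (adjusted p = 9.4e-06) against B6 and -0.55 ± 0.23 (adjusted p = 0.08) in the crosses, with a difference of -1.26 (adjusted p = 0.039). Without the chromosome 8 cross its effect was called in the crosses too (-0.79 ± 0.26, adjusted p = 0.031), and the difference was not (adjusted p = 0.22). Cidec, a lipid droplet protein, was 0.87 to 7.9 CPM against 0.51 to 33.4 CPM, so that 10 B6 mice overlapped the carriers, with a log2 fold change of -1.20 ± 0.42 (adjusted p = 0.04) and 0.34 (adjusted p = 0.5) in the crosses. This call was lost in 8 of 14 omissions of a single mouse, (B6.A6 x B6)F1 replicates 1, 2, 3, 4, 6 and 7 and B6 replicates 4 and 14, where the log2 fold change over all omissions ran from -1.32 to -0.89 and the adjusted p reached 0.16. The paraoxonase genes, whose products hydrolyse lactones and oxidised lipids, lie side by side near 5 Mb. Pon1 rose by 0.21 ± 0.07 (adjusted p = 0.021), Pon3 by 0.29 ± 0.06 (adjusted p = 3.1e-05) and Pon2 by 0.16 ± 0.05 (adjusted p = 0.024). In the crosses they measured -0.06, -0.02 and 0.11, the last called (adjusted p = 0.025), and the difference had an adjusted p of 0.037 for Pon1 and 0.0031 for Pon3, which became 0.23 and 0.079 without the chromosome 8 cross. Pon1 was not called without (B6.A6 x B6)F1 replicate 1, 2 or 3 (adjusted p up to 0.061), nor Pon2 without replicate 1, 3 or 8 or B6 replicate 4 (up to 0.11). Gm44250, a transcript between Pon1 and Pon3, rose by 0.41 ± 0.09 (adjusted p = 0.00049) against B6 and fell by 0.18 in the crosses (adjusted p = 0.047). Tnfrsf1a, the tumour necrosis factor receptor, had a log2 fold change of -0.29 ± 0.06 (adjusted p = 0.0004) and -0.04 in the crosses, a difference with an adjusted p of 0.04, and of 0.44 without the chromosome 8 cross.

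Grouped by function, few genes of each chromosome 6 list were called. None of 9 glucose and glycogen enzymes was called by edgeR, 4 having an unadjusted p under 0.05, and DESeq2 called 1. Triose phosphate isomerase (Tpi1) had a log2 fold change of 0.12 (adjusted p = 0.11). In the crosses Tpi1 had 0.18, and without the chromosome 8 cross 0.13 (adjusted p = 0.034). The difference between its 2 effects had an adjusted p of 0.68. Of the 9 enzymes 1 was called in the crosses, higher. Of 13 lipid and lipoprotein genes 3 rose, the paraoxonases, and 1 fell, Cidec. Of 7 amino acid and one-carbon enzymes 2 rose, Dguok (0.22) and Hibadh (0.19), and 1 fell, Asns. Of 10 complement and protease inhibitor genes, Tfpi2 rose (0.25) and Mug2 fell. Of 25 lectin-like and immune genes 1 rose, Clec4f, and 2 fell, Clec2d and Tnfrsf1a. Of 10 transporters 2 fell, Slc41a3 and the betaine transporter Slc6a12 (-0.25), and 1 of 10 aldo-keto reductase and detoxification genes rose, Hebp1 (0.25). Of 20 transcription and chromatin regulators Hdac11 rose (0.22) and Tcf7l1 fell (-0.50). Of 9 imprinted genes 3 rose, Tfpi2, Pon3 and Pon2. Over all chromosome 6 genes the share called was 13.9%. In the 14 omissions of a single mouse, Hdac11 lost its call in 10 (adjusted p up to 0.14), Clec2d in 8 (0.074), Tcf7l1 in 6 (0.18), Slc6a12 in 5 (0.15), Dguok in 3 (0.089) and Tfpi2 in 1 (0.095).

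Elsewhere in the genome, Esrp2 (chr8:106130319-106136974, minus strand), an epithelial splicing regulator active in adult hepatocytes, had the smallest p of all genes tested. It measured 31.4 to 46.8 CPM (median 41.1) in (B6.A6 x B6)F1 and 48.3 to 86.8 CPM (median 65.5) in B6, and the groups did not overlap. The log2 fold change was -0.60 ± 0.04 (adjusted p = 5.4e-23) against B6 and -0.48 ± 0.03 (adjusted p = 4.3e-27) in the crosses, with -0.32, -0.62, -0.44 and -0.53 on the backgrounds of chromosomes 4, 5, 8 and 10. Over all strains the 28 carriers had 31.4 to 58.4 CPM and the 126 mice without the A/J chromosome 6 had 46 to 86.8 CPM. Within 500 kb of Esrp2, 24 genes were tested, of which 4, Esrp2 included, were called against B6, and Esrp2 alone in the crosses too. Over all genes elsewhere 7.76% were called against B6 and 1.77% in the crosses.

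The other 22 genes that were called elsewhere in both settings changed by less than Esrp2 in relation to their error, and 20 of them rose. Most were small, and without the chromosome 8 cross 8 of the 23 were still called. Gpc1, a heparan sulphate proteoglycan of the cell surface (chr1:92831645-92860779), rose by 0.76 ± 0.17 (adjusted p = 0.0022) and by 0.56 in the crosses, between 0.54 and 0.58 in all 4, with an adjusted p of 0.051 in 3 crosses. It measured 5.38 to 9.05 CPM in carriers and 1.03 to 8.43 CPM in B6, with 3 B6 mice in the carriers' range. Raet1d, a stress ligand of the receptor NKG2D, rose by 0.74 ± 0.17 (adjusted p = 0.0033) and Med12l, a Mediator subunit, by 0.66 ± 0.14 (adjusted p = 0.0013). In 3 crosses Raet1d was called (0.71, adjusted p = 0.019) and Med12l was not (0.37, adjusted p = 0.15). Kyat3, a kynurenine aminotransferase, fell by 0.44 on the log2 scale (SE 0.10, adjusted p = 0.0036) and by 0.34 in the crosses. Dhrs1, a short-chain dehydrogenase (chr14:55739020-55745690), was 72.9 to 80 CPM in carriers and 50 to 83.5 CPM in B6, a log2 fold change of 0.25 ± 0.05 (adjusted p = 0.0016). Emc9 (0.38 ± 0.08) and Dcaf11 (0.16 ± 0.04) lie within 200 kb of it. Of 24 genes tested in that interval 6 were called against B6, 4 in the crosses and these 3 in both. Over all genes elsewhere the shares were 7.76%, 1.77% and 0.183%. The interval was centred on Dhrs1, a gene called in both, so its counts are a description. In 3 crosses Dhrs1 and Emc9 were called (adjusted p = 0.026 and 0.028) and Dcaf11 was not (adjusted p = 0.28). Mitochondrial enzymes of the group were Acaa2 (0.16) and Acat1 (0.17) of fatty acid and ketone metabolism, and Mrps7 (0.14), a protein of the mitochondrial ribosome. Slc46a1, the proton-coupled folate transporter, rose by 0.23 and Sec14l2, a tocopherol-binding protein, by 0.18. Sec14l2 lost its call in 7 of 14 omissions of a single mouse (adjusted p up to 0.096), and Acaa2 and Acat1 without (B6.A6 x B6)F1 replicate 1 (adjusted p = 0.061 and 0.064).

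**Figure D4:**
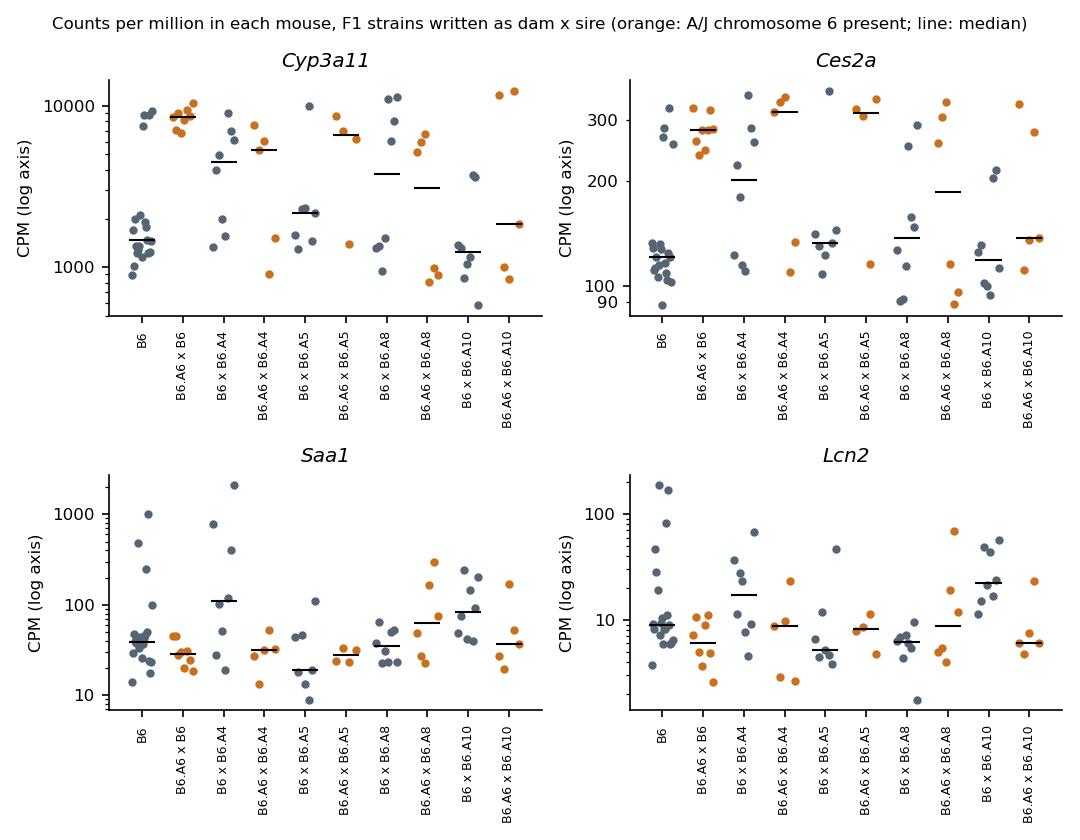
Level in CPM (log axis) of Cyp3a11, Ces2a, Saa1 and Lcn2 in every mouse of (B6.A6 x B6)F1, B6 and the single and double CSSs of chromosomes 4, 5, 8 and 10. Each point is a mouse, orange where it carries the A/J chromosome 6, and lines are medians. All 8 (B6.A6 x B6)F1 mice had 6803 CPM of Cyp3a11 or more, and 4 of the 20 B6 mice lay in that range.

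Among genes with an average of at least 2 log2 CPM, the largest rises elsewhere included drug-metabolising P450s and the carbonic anhydrase gene Car3. Cyp3a11 (chr5:145854426-145879964), a major steroid and drug hydroxylase of mouse liver, measured 6803 to 10353 CPM (median 8552) in the 8 (B6.A6 x B6)F1 mice. In B6, 16 mice had 894 to 2100 CPM and 4 mice had 7478 to 9330.0 CPM, so those 4 lay in the range of the carriers. Its log2 fold change was 1.52 ± 0.40 (adjusted p = 0.0096) against B6 and 0.10 ± 0.30 (adjusted p = 0.91) in the crosses. Over the series 66 mice exceeded 4000 CPM, including 4 of 8 (B6 x B6.A8)F1 and 0 of 8 (B6 x B6.A10)F1 mice. The carboxylesterase Ces2a was 237.4 to 323.7 CPM in carriers, 256 to 325 CPM in the same 4 B6 mice and 87.9 to 133 CPM in the other 16. Cyp2c55 showed the same division, 1.06 to 2.52 CPM in carriers, 1.21 to 1.97 CPM in those 4 and 0.29 to 0.97 CPM in the rest. Both genes were looked at after the values of Cyp3a11 were seen. What divides the B6 mice was not tested. With the Cyp3a11 level as a covariate in the model, 296 genes elsewhere and 56 on chromosome 6 were called, of which 273 and 52 were among the 976 and 99.

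Cyp2b10, the classical target of the nuclear receptor CAR, was 5.1 to 13.3 CPM (median 9.18) in carriers and 0.12 to 58 CPM (median 3.57) in B6, with 4 B6 mice in the carriers' range. It rose by 1.65 ± 0.49 (adjusted p = 0.024), and its value in the crosses was 0.55 (adjusted p = 0.45). Without surrogate variables the log2 fold change was 0.38 (adjusted p = 0.72), and without (B6.A6 x B6)F1 replicate 2 the adjusted p was 0.0502. Of 39 drug-metabolising P450s and their regulators 7 rose and 1 fell, against 4.15% and 3.61% of all genes elsewhere. Cyp3a16 rose by 1.94, Cyp2c55 by 1.35, Cyp3a59 by 0.96, Cyp2c29 by 0.49 and Cyp2d40 by 0.37, and Nr1i2, the xenobiotic receptor PXR, fell (-0.27). The Cyp3a genes are near-identical copies in 1 cluster, and reads may have been shared among them. Of 24 targets of the antioxidant factor NRF2 6 rose, among them Aox1 (0.64 ± 0.11, adjusted p = 4.7e-05), Gsta3 (0.47), Ugdh (0.39) and Ephx1 (0.37), and haem oxygenase Hmox1 fell (-0.62). In the crosses 1 P450 and none of the NRF2 targets was called by edgeR, 1 of the latter having an unadjusted p under 0.05, and DESeq2 called none of them either. Car3 was 355 to 755 CPM in carriers and 86.4 to 560.0 CPM in B6, and rose by 1.12 ± 0.21 (adjusted p = 0.00029), with 0.23 in the crosses. Car3 is also 1 of 2 measured adipocyte markers, whose sum was 364 to 761.5 CPM in carriers and 98.3 to 570.3 CPM in B6, and the part of fat cells in this value was not tested.

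At the same level of expression, the 6 largest falls elsewhere were those of Sult1e1, Saa1, Tff3, Lcn2, Lepr and Igfbp1. Sult1e1, oestrogen sulphotransferase (chr5:87575969-87591594), was 0 to 2.15 CPM in carriers and 0.67 to 48.7 CPM in B6, where 6 mice overlapped. Its log2 fold change was -2.65 ± 0.55 (adjusted p = 0.00098) and -1.18 (adjusted p = 0.078) in the crosses. Lepr, the leptin receptor, was 8.83 to 21.8 CPM (median 15.8) against 10.1 to 212 CPM (median 40.1), a log2 fold change of -1.53 ± 0.35 (adjusted p = 0.0025) and -0.26 in the crosses. Igfbp1, an insulin-suppressed binding protein raised in fasting, was 48.6 to 159.6 CPM (median 98) against 56 to 693.8 CPM (median 229), a log2 fold change of -1.30 ± 0.35 (adjusted p = 0.0098) and -0.79 (adjusted p = 0.053) in the crosses. Tff3, a trefoil peptide, had -1.66 ± 0.40 (adjusted p = 0.0038) and -0.84 (adjusted p = 0.087) in the crosses. The difference between the 2 effects had an adjusted p of 0.051 to 0.48 for these 4 genes. Without the chromosome 8 cross, Igfbp1 was called in the crosses (-1.37 ± 0.28, adjusted p = 0.017).

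Of 25 genes in a list of acute-phase proteins and their regulators, 7 fell and none rose, against 3.61% and 4.15% of all genes elsewhere. They were Saa1 (-1.98 ± 0.67, adjusted p = 0.048), Lcn2 (-1.59), Il1r1 (-0.76), Itih3 (-0.47), Serpina3n (-0.47), Fga (-0.39) and Stat3 (-0.26). Saa1, serum amyloid A, was 18.7 to 45 CPM (median 28.8) in carriers and 14 to 997 CPM (median 38.9) in B6. The high end of B6 came from 3 mice, replicates 7, 14 and 16, which had 478, 248 and 997 CPM; the other 17 had 14 to 98.9 CPM. Of the 20 B6 mice 11 lay within the carriers' range. B6 replicates 12 and 20 were left out together with these 3, a choice made after the values were seen. Saa1 then had a log2 fold change of -0.09 (adjusted p = 0.95) and Lcn2 of -0.32 (adjusted p = 0.67), and 4 of the 25 genes were called lower. Leaving out the B6 mice with the highest Saa1 shrinks its fall by construction, so this omission cannot test that fall. The call of Saa1 was lost in 13 of 14 omissions of a single mouse and that of Lcn2 in 9, where their adjusted p reached 0.15 and 0.12. Without (B6.A6 x B6)F1 replicate 1, 3 or 8 or B6 replicate 4, 7 or 14, 4 of the 25 genes were called lower. In the crosses 1 of the 25 was called higher and 1 lower. Neutrophil markers summed to 7.51 to 12.7 CPM in carriers and 6.29 to 23.3 CPM in B6.

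Other genes with very small p were called against B6 and not in the crosses. Lrit1 measured 16.8 to 22.5 CPM in carriers and 6.1 to 18.2 CPM in B6, and rose by 0.77 ± 0.10 (adjusted p = 5.4e-08), with 0.13 (adjusted p = 0.41) in the crosses. Ces1f, a liver carboxylesterase, measured 248 to 414 CPM and 54.4 to 264 CPM, with 1 B6 mouse in the carriers' range, and rose by 0.89 ± 0.12 (adjusted p = 1.3e-07), with 0.26 (adjusted p = 0.099). Fam213b, a prostamide synthase, rose by 1.01 ± 0.16 (adjusted p = 4.8e-06), with 0.33 (adjusted p = 0.11). Arl6ip1 rose by 0.30 ± 0.05 and Atp2a2, the calcium pump of the endoplasmic reticulum, fell (-0.38 ± 0.06, adjusted p = 2.6e-05). The difference from the crosses had an adjusted p of 0.0013 to 0.026 for these 5 genes, and of 0.056 to 0.2 without the chromosome 8 cross.

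**Figure D5:**
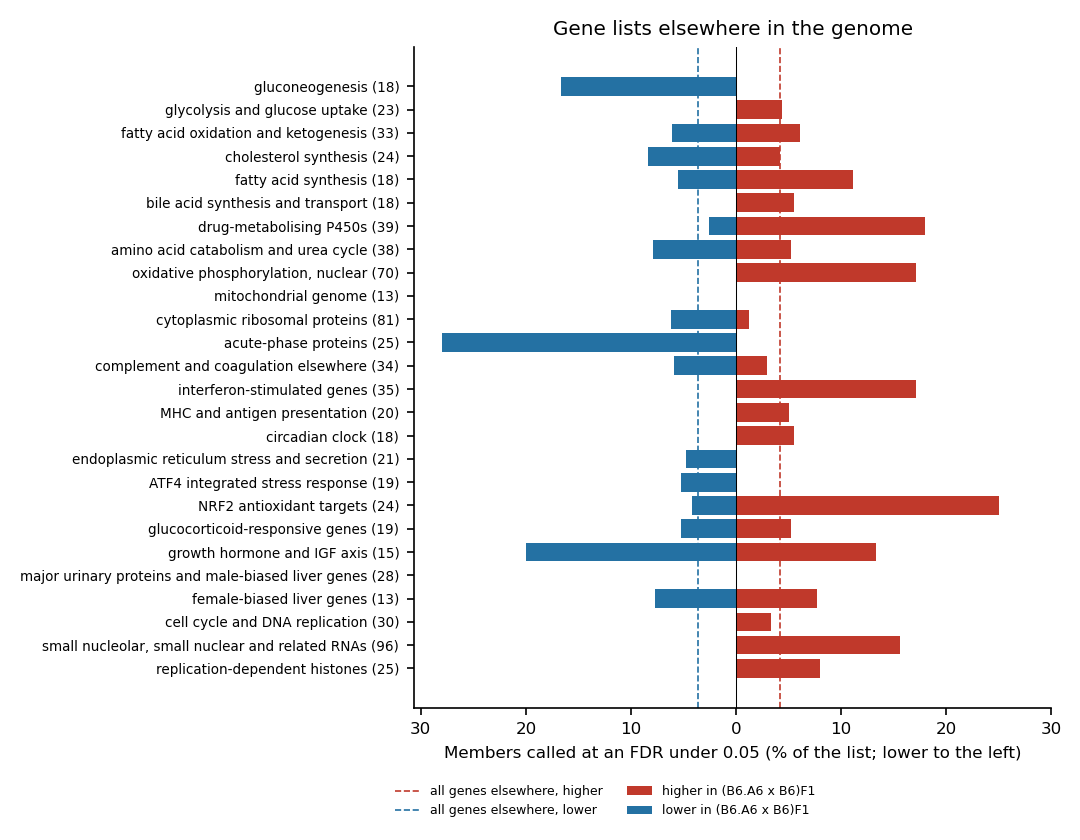
Share of members called higher (right) and lower (left) in each gene list outside chromosome 6 for (B6.A6 x B6)F1 against B6, in percent, with the number of members measured. Dashed lines mark the shares over all genes elsewhere, 4.15% higher and 3.61% lower. Bars for acute-phase genes reach furthest to the left and those for NRF2 targets furthest to the right.

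Among the lists of energy metabolism, 12 of 70 nuclear genes of oxidative phosphorylation rose and none fell. Over all genes elsewhere 4.15% rose and 3.61% fell, which is the background for each list here. The 12 changes were small, from 0.12 for Atp5h to 0.25 for Ndufa13 (adjusted p = 0.00018), and the median of the list was 0.08. None of the 70 was called in the crosses by edgeR or DESeq2, 16 having an unadjusted p under 0.05, and the median there was 0.01. The count was 3 without B6 replicate 4 or (B6.A6 x B6)F1 replicate 1, 7 without (B6.A6 x B6)F1 replicates 2 or 5, 6 without replicate 3, and 3 without surrogate variables. Of 13 genes of the mitochondrial genome none was called by edgeR or DESeq2, 3 having an unadjusted p under 0.05. Gluconeogenesis, the making of glucose in fasting, had 3 of 18 genes lower, Lpin1 (-0.98), the coactivator Ppargc1a (-0.67) and the aminotransferase Got1 (-0.52), and a median of -0.20. Got1 lost its call in 8 of 14 omissions of a single mouse (adjusted p up to 0.14), Lpin1 in 7 (0.12) and Ppargc1a in 1 (0.058), and in the crosses the list had a median of 0.05 with no gene called by edgeR or DESeq2, 7 having an unadjusted p under 0.05. Of 33 genes of fatty acid oxidation and ketogenesis 2 rose (Hadh and Acaa2) and 2 fell (Cyp4a32, -0.56, and the rate-limiting transferase Cpt1a, -0.33). The median of this list was -0.07 against B6 and 0.14 in the crosses, where 4 of the 33 were called higher and 0 lower. Of 18 fatty acid synthesis genes the desaturase Scd1 (0.90 ± 0.20, adjusted p = 0.0021) and malic enzyme Me1 (0.56) rose and Elovl5 (-0.49) fell. Among cholesterol synthesis genes Tm7sf2 rose and Lss (-0.44) fell. Of 23 glycolysis and glucose uptake genes ketohexokinase Khk (0.30) was the call, and in the crosses 2 of the 23 were called higher and 0 lower. In the 14 omissions of a single mouse, Elovl5 lost its call in 5 (adjusted p up to 0.096), Khk in 5 (0.15) and Cpt1a in 4 (0.13).

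Growth hormone and insulin-like growth factor genes moved in both directions, 2 of 15 higher and 3 lower. The growth hormone receptor Ghr rose by 0.38 ± 0.07 (adjusted p = 0.0002), 404 to 541 CPM against 201.95 to 449 CPM, and Jak2 by 0.15. The binding proteins Igfbp1, Igfbp2 (-0.66) and Igfbp3 (-0.31) fell. None of the 15 was called in the crosses by edgeR, 4 having an unadjusted p under 0.05, and DESeq2 called 1. Igfbp3 lost its call in 5 of 14 omissions of a single mouse. Of 35 interferon-stimulated genes 6 rose and none fell, Apol9a (0.48), Apol9b (0.47), Ifi47 (0.46), Igtp (0.40), Bst2 (0.37) and Ifi27 (0.37), and 3 of the list were called higher in the crosses. The list had a median of 0.18 in both settings, where over all genes elsewhere the median against B6 was near 0. The count was 3 or 2 without (B6.A6 x B6)F1 replicate 1 or 3, and 2 without B6 replicate 4.

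Of 28 major urinary protein and male-biased genes, none was called by edgeR at a median of 0.22, 3 having an unadjusted p under 0.05, and DESeq2 called 1. Of 38 genes of amino acid catabolism and the urea cycle 2 rose (Haao and Otc) and 3 fell (Got1, Cps1 and Mat1a). Among cytoplasmic ribosomal protein genes Rps27l rose, and Rplp2 (-0.22), Rpl12 (-0.22), Rpl3 (-0.21) and Rplp0 (-0.15) fell. Of 20 antigen presentation genes B2m (0.17) was called, of 21 endoplasmic reticulum genes Hspa5 (-0.35), and of 18 bile acid genes Hsd3b7 (0.25). Over all genes elsewhere the share called was 7.76%. In the 14 omissions of a single mouse, Hspa5 lost its call in 10 (adjusted p up to 0.11), Rpl12 in 8 (0.13) and Mat1a in 7 (0.20). Rpl3 lost it in 6 (0.10), Cps1 in 5 (0.11), B2m in 2 (0.061) and Hsd3b7 in 1 (0.078). Haao and Rplp2 lost it in 0.

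Brca2, a gene of homologous recombination (chr5:150522630-150570329), was one of the genes the study discusses. It was 6.79 to 11.2 CPM (median 10.1) in carriers and 4.68 to 10 CPM (median 7) in B6, with 12 B6 mice in the carriers' range. It rose by 0.51 ± 0.10 (adjusted p = 0.00065) against B6 and had -0.19 in the crosses, a difference of 0.69 (adjusted p = 0.0013), and of 0.62 (adjusted p = 0.022) without the chromosome 8 cross. Agxt, which detoxifies glyoxylate, had a log2 fold change of -0.20 ± 0.09 (adjusted p = 0.18) against B6 and 0.21 in the crosses, with a difference of -0.40 (adjusted p = 0.026), and of -0.18 (adjusted p = 0.54) without the chromosome 8 cross. Agt, angiotensinogen, had -0.06 ± 0.08 (adjusted p = 0.67) and 0.16 in the crosses, a difference with an adjusted p of 0.15.

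Other mice can stand in for B6 as controls. Against the 55 mice of the other 7 single CSSs, (B6.A6 x B6)F1 had 83 genes called on chromosome 6 (11.7%) and 209 elsewhere (1.66%), of which 145 were higher (1.15%). Mug2 had a log2 fold change of -0.96, Hist4h4 of 1.20, Dysf of -0.85 and Esrp2 of -0.56 there (adjusted p = 4e-11, 1.5e-14, 4.6e-12 and 3.2e-23). Cyp3a11 had 1.12 (adjusted p = 0.074) and Saa1 -1.83 (adjusted p = 0.11). Both comparisons use the same 8 (B6.A6 x B6)F1 mice.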

How the data were processed

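Livers of male mice of 24 strains were profiled by stranded total RNA sequencing with single 50 bp reads. The authors aligned reads to mm10 with TopHat2, aligned leftover reads to an A/J version of the genome, removed duplicates and low-quality reads, counted with HTSeq against GENCODE, dropped genes with low counts, and deposited raw counts per gene, which were used as given. Library totals were 6752637 to 25630807 in the mice compared, and counting error is smallest for highly expressed genes. Gene positions came from GENCODE vM21 (mm10) and promoters from RefSeq, and 47 of 13289 genes had no position there.

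All mice were fitted together in edgeR 4.0.16 (R 4.3.3) by the quasi-likelihood F-test, with TMM scaling, 1 mean per strain and 5 surrogate variables from sva 3.50.0. The effect in the crosses is a contrast of the same fit, as is the difference between the 2 effects. The p-values were adjusted by Benjamini-Hochberg separately for chromosome 6 and elsewhere, and measure the spread between mice. Counts were simulated for this comparison over 13289 genes. Of genes changed on the log2 scale, 96 of 100 changed by 0.5 and 98 of 100 changed by 1 were recovered. In the same fit 10 unchanged genes were called. Changes were placed only in genes with higher counts. The simulated counts held no other difference among strains and no variation shared by groups of mice. These numbers therefore need not hold for the measured counts. The members and gene lists were chosen with earlier results of these data known. Named genes were, at an average of at least 2 log2 CPM, the called genes on chromosome 6 with the 8 smallest p and the 4 largest rises and falls, those elsewhere with the 6 smallest p and the 6 largest rises and falls, up to 4 called members of each list, and Brca2, Agxt and Agt. Genes called in both settings, those described as looked at later, and further called list members were added after the values were seen. Alternatives varied the surrogate variables, scaling, count filter, test, threshold, mice, crosses, control strains and covariates, with DESeq2 1.42.0 as another tool. Called genes beyond those named were summarised by their counts, and some named by the rule are not reported here.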

Additional observations from a re-analysis of the deposited data

Results flagged for a closer look

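For 32 named genes the effect against B6 and the mean effect in the 4 crosses differed by the test of that difference (edgeR quasi-likelihood test of the contrast, adjusted p under 0.05). Only named genes called against B6 could be flagged, so the effect that selected them is part of the difference. On chromosome 6 the difference on the log2 scale was -1.26 for Asns, 0.31 for Pon3, 0.27 for Pon1, 0.27 for Tfpi2 and -0.25 for Tnfrsf1a. Elsewhere the effect against B6 was the higher one for Snora23 (1.33), Gm25636 (0.99), Car3 (0.89), Brca2 (0.69), Fam213b (0.68), Lrit1 (0.65), Ces1f (0.63), Aox1 (0.62), Gsta3 (0.58), Me1 (0.52), Ugdh (0.41), Ghr (0.37), Clec4g (0.36), Ndufa1 (0.32), Ndufa13 (0.25), Ndufs6 (0.23), Arl6ip1 (0.21) and Nr3c1 (0.18). It was the lower one for Hmox1 (-0.66), Elovl5 (-0.62), Cyp4a32 (-0.56), Igfbp2 (-0.55), Itih3 (-0.52), Cpt1a (-0.49), Atp2a2 (-0.42), Mat1a (-0.39) and C3 (-0.38). Without the chromosome 8 cross, of these 32 differences that of Brca2 alone was still called (adjusted p = 0.022), and the others had an adjusted p of 0.056 to 0.51.

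In 7 genes 1 of the 8 (B6.A6 x B6)F1 mice lay far from the others. Its gap to the nearest mouse, as a share of the group's range, was 0.678 for the lowest mouse in Acta2, 0.676 for the highest in Tfpi2, 0.659 for the lowest in Bid, 0.625 for the highest in Rmdn3, 0.606 for the highest in Igtp, 0.594 for the lowest in Lrit1 and 0.557 for the highest in Cyp17a1. Each passed the 95% limit of Dixon's test for 8 samples, which chance passes in about 1 of 20 groups, where 161 genes were looked at.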

How the results depend on the processing

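No paired analysis was possible because mice were numbered in accession order, which pairs no mice across groups. The genes called against B6 numbered 99 on chromosome 6 and 976 elsewhere, those called in the crosses 16.3% of genes and 223 genes, those with a called difference between the 2 effects 39 and 628, and those called in both in 1 direction 40 and 23. Mice were left out 1 at a time, the 8 carriers as planned and 6 of the B6 mice, which were chosen after seeing the data. These 14 omissions gave 72 to 114 genes and 3.602% to 9.82% of genes tested (453 to 1235) against B6, and elsewhere 157 to 252 in the crosses, with 16 to 57 and 113 to 1024 differences, and 34 to 40 and 16 to 25 in both.

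With 0 surrogate variables 1351 genes elsewhere were called in the crosses, 63 and 1098 differences were called and 115 genes elsewhere were called in both. With 10, these were 2.64% of genes elsewhere (332, of which 218 higher) against B6, 65 elsewhere in the crosses, 0 and 0 differences by edgeR (74 and 1356 at an unadjusted p under 0.05) and 15 in both. With the 2 groups alone and no surrogate variables, 62 genes on chromosome 6 were called, and with 2 surrogate variables Hist1h1e changed sign (-0.049). A count of at least 15 in 75% of mice gave 59 differences on chromosome 6. A count of at least 15 in every mouse gave 47 genes and 1.31% of genes against B6, 1652 elsewhere in the crosses and 295 differences elsewhere, with fewer genes tested. An adjusted p under 0.01 gave 57 genes and 2.52% of genes against B6, 71 and 45 in the crosses, 4 and 92 differences, and 26 and 7 in both. Adjustment over all genes together gave 73 on chromosome 6 in the crosses. DESeq2 moved none of these 8 counts by over 1.5 times, nor did its size factors. The causes were not tested.

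Of other alternatives chosen after seeing the data, leaving out 5 B6 mice gave 89 and 1525 differences. Leaving out the chromosome 8 cross gave 77 and 45 in the crosses, 2 and 13 differences, and 12 elsewhere in both. The Cyp3a11 covariate gave 56 genes and 2.35% of genes against B6 and 2 and 84 differences, and the other 7 single CSSs as controls gave 1.66% elsewhere. Of 52 named called genes on chromosome 6, 27 kept direction and call in all 28 settings, as did 14 of 98 elsewhere. At least 1 of the 14 single omissions ended the call of 17 and 47 of them.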

Other observations

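Small nucleolar, small nuclear and related RNAs, which guide RNA modification and splicing, were not described above. Of 96 such genes measured, 15 rose and none fell against B6 (14 called by DESeq2), where 4.15% of all genes elsewhere rose, and their median log2 fold change was 0.45. Examples were Gm24044 (1.05), Snora23 (1.03), Gm25099 (1.03) and Gm25636 (0.93). In the crosses none was called by edgeR or DESeq2, 8 had an unadjusted p under 0.05, and the median was -0.13. Their summed level was 6119 to 20407 CPM in the 8 (B6.A6 x B6)F1 mice and 5240 to 13207 CPM in the 20 B6 mice, so the groups overlapped. The number called higher was 1 without B6 replicate 4, 3 without (B6.A6 x B6)F1 replicate 3, and 0 with 10 surrogate variables.

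Further lists held few calls, where 7.76% of all genes elsewhere were called. Of 34 complement and coagulation genes elsewhere, C8g rose (0.18) and Pros1 (-0.29) and C3 (-0.34) fell. Of 19 targets of the stress factor ATF4, Atf5 fell (-0.36). Of 19 glucocorticoid-responsive genes, the receptor Nr3c1 rose (0.15) and Lcn2 fell. Of 13 female-biased liver genes, Cyp3a16 rose and Cyp17a1 fell (-0.99). Of 12 stellate cell and fibroblast markers, Acta2 (-1.13) and Col1a2 (-0.32) fell. In the 14 omissions of a single mouse, Nr3c1 lost its call in 7, Cyp17a1 in 6 and Acta2 in 5. C8g and Col1a2 lost it in 4 each, Atf5 and Pros1 in 3 each and C3 in 1. Of 12 endothelial markers Clec4g (0.26) rose, and of 6 cholangiocyte markers Pkhd1 (0.36) rose. Each of these lists had a median of -0.06. Clec4g lost its call in 10 of 14 omissions of a single mouse (adjusted p up to 0.17), and Pkhd1 in 0. None of 5 lymphocyte, 5 neutrophil and 7 erythroid markers was called by edgeR or DESeq2, and none had an unadjusted p under 0.05. The part of cell composition in these values was not tested.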
